A study of Solenopsis invicta with 64 samples.

Results

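Brains of gynes from both social forms of the fire ant Solenopsis invicta were compared at a fixed supergene genotype: 8 polygyne SB/SB brains against 8 monogyne SB/SB brains, 16 of the 64 libraries of the study. Members were taken from the labelled tissue, social form and genotype of each library, and no measured value was used to choose them. The polygyne SB/SB animals were 104D, 107E, 15D, 16D, 19D, 1E, 20D and 30E, and the monogyne SB/SB animals were 207A, 209A, 222A, 232A, 233A, 235A, 239A and 240A. All were winged, unmated, reproductively mature queens caught in the field on flight days, and neither group carries the Sb variant. The other brains came from polygyne SB/Sb and Sb/Sb gynes (8 each), and the ovaries of the same 32 animals make up the rest of the series. The numbers in the library titles, read here as colony numbers, are not shared by the social forms: 8 numbers occur in the polygyne SB/SB group, 8 in the monogyne group and 0 in both. Social form and anything that goes with the colony of an animal therefore cannot be told apart. Animal 16D, labelled polygyne, shared the presence of 6 genes in the brain with 5 monogyne animals. These genes were picked by their values and were near 0 in the monogyne brains 222A, 235A and 240A. Whether the label of 16D holds was not tested. Each library came from a single brain, and where RNA differs, fewer cells of a type and less RNA per cell cannot be told apart.

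In this species the social form of a colony goes with a supergene on chromosome 16, a block of genes held together by inversions and inherited as a unit. Colonies with a single egg-laying queen (monogyne) hold only SB animals, while colonies with several queens (polygyne) hold animals that carry Sb. Monogyne gynes typically leave on a mating flight and found a colony alone, whereas polygyne gynes are often adopted into existing nests. Egg-laying queens of polygyne colonies are as a rule SB/Sb, and polygyne workers that carry Sb attack SB/SB queens. A polygyne SB/SB gyne thus shares its supergene genotype with a monogyne gyne and its rearing colony type with Sb carriers. Gene products are not named in the gene table used here, so most genes below are known by identifier and chromosome only.

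LOC105196801 alone passed the test between the social forms in the brain, and it was higher in polygyne animals. This protein-coding gene lies on chromosome 2, outside the chromosome of the supergene. In monogyne SB/SB brains its lowest value was 31.9 CPM (read counts scaled to a common library size by the TMM method, trimmed mean of M values), its median 42.3 and its highest 61.8. In polygyne SB/SB brains the lowest value was 60.4, the median 88.9 and the highest 127 CPM. Brains 15D, 16D and 19D were the highest, and the groups overlapped only where monogyne 240A (61.8) exceeded polygyne 107E (60.4). The mean was 43.9 ± 9.44 CPM (SD, n = 8) in monogyne and 93.7 ± 26.9 (SD, n = 8) in polygyne SB/SB brains; the log2 change was 1.09 ± 0.18 (SE), with an adjusted p of 0.00768 by edgeR. It was 1 of 10704 genes tested, so 0.00934% of all genes were called higher and 0% lower. The other polygyne genotypes held the gene at 73.7 ± 14.6 CPM in SB/Sb and 75.2 ± 15.1 CPM in Sb/Sb brains (SD, n = 8 each). Against the same monogyne brains, Sb/Sb passed the test (log2 0.78, adjusted p = 0.0184 by edgeR) and SB/Sb did not (log2 0.75, adjusted p = 0.0833). Within polygyne brains, SB/Sb minus SB/SB was -0.35 on the log2 scale (adjusted p = 1.0) and Sb/Sb minus SB/SB was -0.32 (adjusted p = 0.38). Its call was lost when only the 16 SB/SB brains were fitted (log2 1.10, adjusted p = 0.153 by edgeR). Leaving out each of the 16 brains in turn gave log2 changes from 1.02 to 1.18 and adjusted p-values from 0.00213 to 0.0370.

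**Figure D1:**
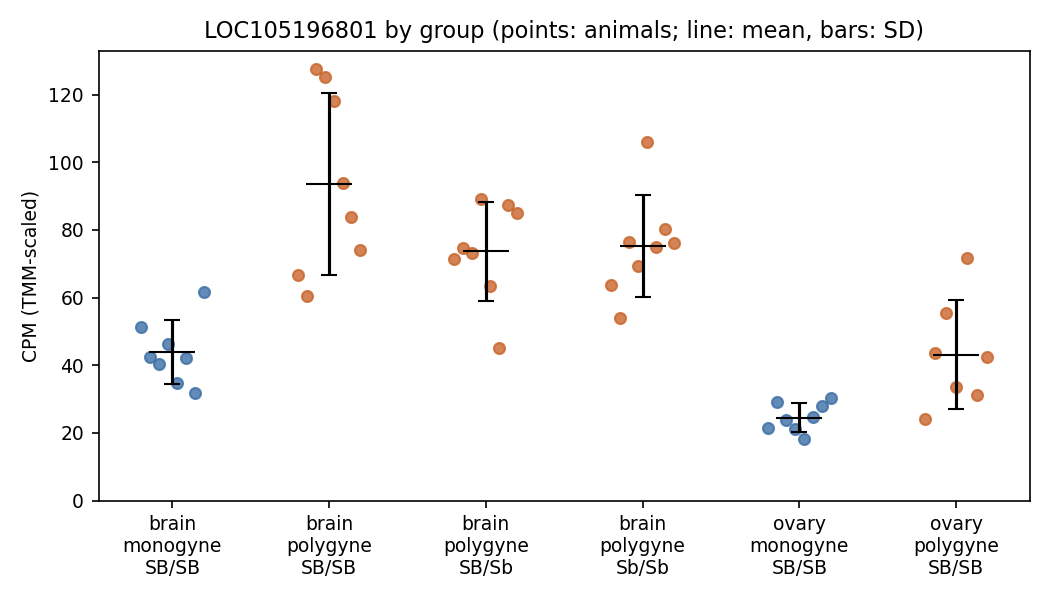
LOC105196801 in CPM (vertical axis, from 0) by group, with 1 point per animal and lines and bars for the mean and SD; the ovary of 104D, a shallow library, is left out. Polygyne SB/SB brains lie at 60.4 to 127 CPM and monogyne brains at 31.9 to 61.8 CPM, and the means of SB/Sb and Sb/Sb brains (73.7 and 75.2 CPM) lie between the means of the SB/SB groups.

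The ovaries of the same animals showed the gene at lower CPM. Monogyne SB/SB ovaries held LOC105196801 at 24.5 ± 4.24 CPM (SD, n = 8), from 18.2 to 30.2. Polygyne SB/SB ovaries held it at 43.2 ± 16.1 CPM (SD, n = 7, without the shallow library of 104D), from 24.2 to 71.6. Without 104D the ovary contrast was 0.83 on the log2 scale and did not pass the test (adjusted p = 0.0732 by edgeR, where 1.05% of all genes were called). In 1 fit of both tissues, which scales the libraries together, the difference between the brain and the ovary contrast was 0.03 ± 0.45 (SE) with all animals and 0.37 without 104D, with adjusted p-values of 1.0 and 0.864.

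The neighbours of LOC105196801 on chromosome 2 did not pass the test. LOC105196802, the next gene on 1 side, averaged 37.4 CPM in monogyne and 53.2 CPM in polygyne SB/SB brains (log2 0.51 ± 0.22, unadjusted p = 0.0295, adjusted p = 0.226). The next 2 genes on that side were LOC105196803 at a log2 change of -0.30 ± 0.19 and LOC105196805 at -0.03 ± 0.20. On the other side LOC105196799, LOC105196800 and LOC105196798 averaged at most 2.42 CPM in either group. None of these genes overlaps another in the gene table.

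Beyond this gene, small p-values leaned towards higher levels in polygyne brains, without passing the correction. Of the 10704 genes, 1416 (13.2%) were higher and 558 (5.21%) lower at an unadjusted p under 0.05. Over all genes the median log2 change was 0.05. The 12 higher and 12 lower uncalled genes with the smallest p and a mean of at least 5 CPM in 1 group were read in each brain. Their adjusted p-values ran from 0.0709 to 0.138 by edgeR, and 21 of the 24 could be placed, on 14 chromosomes, 2 of them on chromosome 16.

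Among the higher of these, LOC105205369 on chromosome 7 had the smallest p. Its lowest, median and highest values were 0.339, 1.59 and 2.83 CPM in monogyne and 1.67, 5.67 and 35.9 CPM in polygyne SB/SB brains (log2 2.84 ± 0.57, adjusted p = 0.0709). Brains 1E (35.9) and 16D (21.7) were far above the rest, and 20D lay inside the monogyne range. LOC105202365 on chromosome 16 was spread more evenly over the polygyne brains. It ran from 112 to 226 CPM (median 136) in monogyne and from 190 to 451 CPM (median 252) in polygyne brains, and only monogyne 222A exceeded the lowest polygyne brain, 107E (log2 0.91 ± 0.19, adjusted p = 0.086). LOC105204757 on chromosome 12 ran from 4.94 to 15.8 CPM in monogyne and from 12.9 to 92.3 CPM in polygyne brains (log2 2.14 ± 0.47, adjusted p = 0.0916), with 15D, 1E and 30E the highest. LOC105196602 on chromosome 11 ran from 2.07 to 7.65 CPM and from 6.71 to 39.3 CPM (log2 1.73 ± 0.36, adjusted p = 0.0756). Its highest brain was 16D, and 107E alone of the polygyne brains lay inside the monogyne range.

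The steepest of the higher genes rested on a few brains. LOC105198633 on chromosome 1 (log2 3.68 ± 0.90) stood at 129 CPM in 1E and 116 CPM in 16D, against 1.53 CPM in 107E and 1.86 CPM in 104D. LOC105194883 on chromosome 4 (log2 3.39 ± 0.79) stood at 78.7 CPM in 1E and 40.8 CPM in 16D, while 104D at 0.233 CPM was below every monogyne brain. In 11 of the 12 higher genes the highest of the 16 brains was 1E or 16D. The remaining ones were LOC105197768, LOC105202312, LOC105195208, LOC105201575, LOC105207272 and LOC105198853, with log2 changes from 1.04 to 2.02.

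The lower genes of this set were led by LOC105203715 on chromosome 11. Its lowest, median and highest values were 0.527, 5.82 and 15.0 CPM in monogyne and 0.0866, 0.391 and 3.35 CPM in polygyne SB/SB brains (log2 -2.92 ± 0.60, adjusted p = 0.0756). The polygyne brains 104D and 20D lay inside the monogyne range, and 6 of 8 lay below it. This low level was not shared by the other polygyne genotypes: SB/Sb brains averaged 5.97 ± 2.15 CPM and Sb/Sb brains 15.3 ± 8.32 CPM (SD, n = 8 each). Both contrasts within polygyne brains passed the test by edgeR, at log2 2.81 (adjusted p = 0.022) and 4.16 (adjusted p = 6.7e-05), where 0.252% and 0.962% of all genes were called. These contrasts share the polygyne SB/SB brains with the contrast of social form.

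LOC105196318 on chromosome 8 ran from 39.3 to 90.1 CPM (median 65.7) in monogyne and from 8.06 to 54.5 CPM (median 29.8) in polygyne SB/SB brains (log2 -1.21 ± 0.27, adjusted p = 0.107). Only 104D, at 54.5 CPM, reached into the monogyne range. SB/Sb and Sb/Sb brains averaged 35.7 and 45.1 CPM, also below the monogyne mean of 66.8. LOC105202152, on the same chromosome, ran from 1.24 to 58.0 CPM in monogyne and from 0 to 2.83 CPM in polygyne SB/SB brains (log2 -3.56 ± 1.01, adjusted p = 0.137). It averaged 1.41 CPM in SB/Sb and 0.916 CPM in Sb/Sb brains, and its monogyne mean of 13.4 CPM rested on 207A at 58.0 CPM and 233A at 23.6 CPM. The other lower genes had smaller changes, from -1.06 (LOC105206826) to -0.54 (LOC105205181) on the log2 scale, and included LOC105193618, LOC105198892, LOC105207193, LOC105203463 and LOC105207465.

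**Figure D2:**
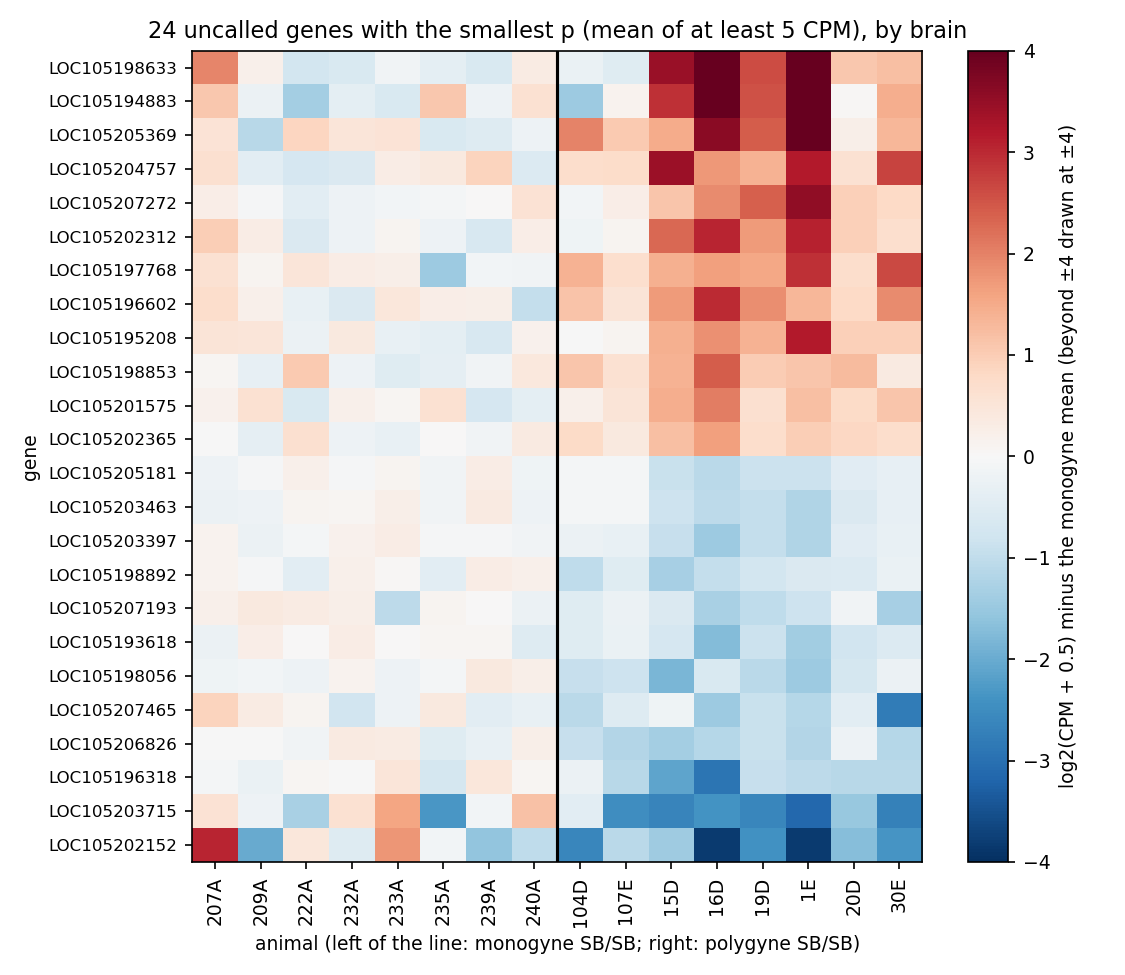
Each cell gives log2(CPM + 0.5) of 1 gene (rows) in 1 SB/SB brain (columns) minus the mean of the 8 monogyne brains, with red for higher and blue for lower; the black line separates monogyne (left) from polygyne (right) brains. The red of the 12 higher genes is deepest in 15D, 16D, 19D and 1E and palest in 104D and 107E.

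Averaged over the 3 polygyne genotypes, 8 brains each, more genes passed the test against monogyne SB/SB brains, a comparison added after the data were seen. It called 44 of 10704 genes (0.411%), 21 higher (0.196%) and 23 lower (0.215%), by edgeR. More brains enter this mean than the contrast of SB/SB brains, so the numbers of called genes are not alike in precision. At an unadjusted p under 0.05 by edgeR, the mean held 1176 genes (11%), against 1974 (18.4%) in the contrast of SB/SB brains. LOC105196801 was among the 44 (log2 0.87, adjusted p = 0.0014), as were LOC105202365 (0.70, adjusted p = 0.044), LOC105204757 (1.70, adjusted p = 0.048), LOC105196318 (-0.89, adjusted p = 0.041) and LOC105202152 (-3.56, adjusted p = 0.0044). No other gene of the 24 uncalled ones above was called. All were picked by small p in the contrast of SB/SB brains. That contrast is part of this mean and shares its monogyne brains, so these calls are no separate test. The polygyne genotypes share title numbers, and the count of 44 treats their brains as independent. Without a block, voom called 65 genes (0.607%), 34 of them among the 44, and did not call LOC105204757 (1.49, adjusted p = 0.171). With the title number as a random block, voom called 54 genes (0.504%), 33 of them among the 44. LOC105204757 was again not called (1.52, adjusted p = 0.244). The mean includes brains that carry Sb, so a gene can be called there for its level in SB/Sb and Sb/Sb brains alone.

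A gap between all 8 brains of one form and all 8 of the other occurred in 6 genes (0.0561% of those tested), 3 higher (0.028%) and 3 lower (0.028%) in polygyne brains; these were looked up after their values were seen. LOC105197768 on chromosome 10 ran from 1.87 to 9.53 CPM in monogyne and from 9.92 to 49.5 CPM in polygyne brains (log2 1.80 ± 0.42, adjusted p = 0.137). LOC105196244 on chromosome 4 ran from 3.55 to 9.64 CPM and from 11 to 24.2 CPM (log2 0.99 ± 0.33, adjusted p = 0.156), with 1E the highest. LOC105200133, on the same chromosome, ran from 0.386 to 1.63 CPM and from 1.68 to 9.44 CPM (log2 1.90 ± 0.64, adjusted p = 0.158). The gap between the groups was small in all 3, and brain 1E stood at the top of each.

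LOC105203397 on chromosome 16 was among the 3 lower genes, at 166 to 239 CPM in monogyne and 70.4 to 166 CPM in polygyne brains (log2 -0.68 ± 0.18, adjusted p = 0.137). LOC105198056 on chromosome 5 ran from 47.4 to 71.4 CPM and from 15.1 to 46.3 CPM (log2 -0.91 ± 0.24, adjusted p = 0.137). LOC105199030 on chromosome 2 ran from 0.796 to 8.09 CPM in monogyne brains. In polygyne SB/SB brains it was at 0 in 6 brains, at 0.0958 CPM in 107E and at 0.326 CPM in 104D (adjusted p = 0.156). A further low gene, LOC105203932 on chromosome 3, had no counts in any of the 8 polygyne SB/SB brains and 0 to 2.14 CPM in monogyne brains (adjusted p = 0.0657). A count of 0 allows up to 0.113 to 0.260 CPM in the 16 brains, 3 counts per library, with counting error only.

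The polygyne brains were less alike than the monogyne brains, and animals 1E and 16D stood apart. Total counts ran from 9.46 to 23.5 M in polygyne SB/SB and from 15.5 to 26.9 M in monogyne brains, with 1E the shallowest. The median rank correlation of a brain with the other 15 was 0.788 in 1E and 0.847 in 16D, 0.898 to 0.946 in the other polygyne brains and 0.928 to 0.944 in the monogyne brains. Exact permutation tests of 6 library measures, among them depth, genes detected, rank correlation and the share of counts on chromosome 16, gave adjusted p-values of 0.555 or more. Brain 1E was the highest of the 16 in 22.1% of genes and the lowest in 18.7%, and 16D the highest in 15.3% and the lowest in 16.9%; ties, which set the lowest in 14.4% of genes, were left out. The SD of log2 CPM was larger in polygyne than in monogyne brains in 81.6% of genes, and in 61.4% without 1E and 16D. Genes chosen earlier on these libraries as abundant in each tissue were read in the 16 brains. That choice largely fixes their side, so they are no separate check of the labels. The 2 brain genes summed to 961 to 2953 CPM, with 1E the lowest, and the 3 ovary genes to 11 to 41.2 CPM. The same limit holds for 8 genes chosen earlier on these libraries as linked to Sb. They summed to 0.0958 to 5.05 CPM in the 16 brains, 15D and 16D being the highest. Every SB/Sb or Sb/Sb brain had 62.3 CPM or more. In 15D the sum came from LOC105196479 alone (5.05 CPM) and in 16D mostly from LOC105205139 (4.09 CPM).

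**Figure D3:**
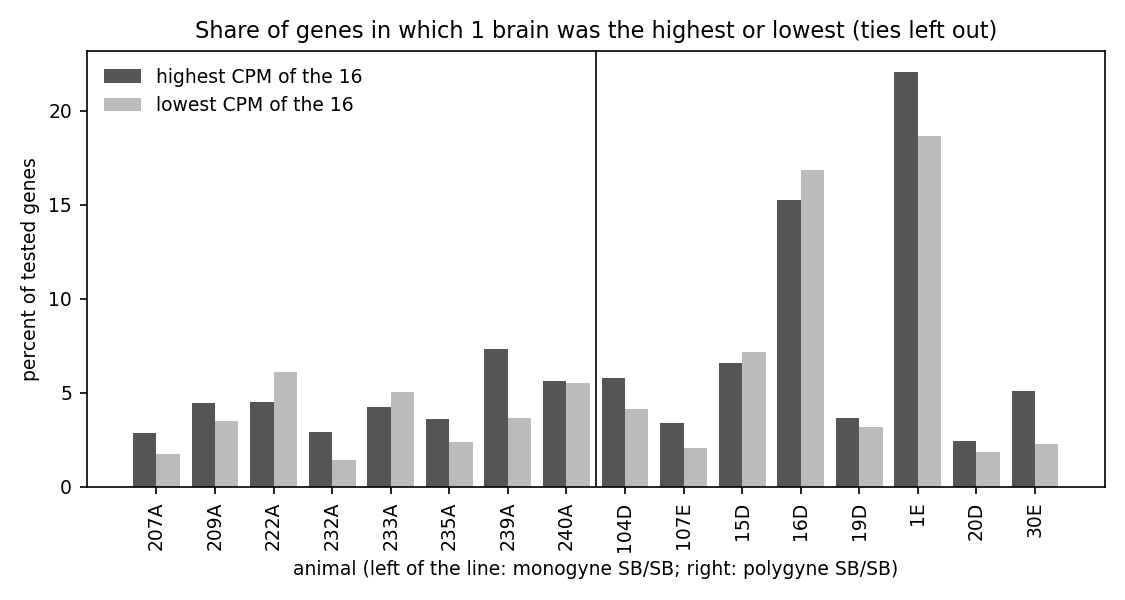
Percent of the 10704 tested genes (vertical axis) in which a brain had the single highest (dark bars) or single lowest (light bars) CPM of the 16, with monogyne brains left of the line and polygyne brains right of it. Bars of 1E reach 22.1% and 18.7%, and those of 16D reach 15.3% and 16.9%, against at most 7.33% in any other brain.

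These brains bear on how many genes are called. DESeq2 called 358 genes (3.34%), 316 higher (2.95%) and 42 lower (0.392%) in polygyne SB/SB brains, including all 24 uncalled genes above. Of the 316 higher genes, 142 had their highest value in 1E and 151 in 16D, that is 293 in either. The median log2 change of the 316 genes was 1.35 with all brains and 0.77 without 1E and 16D, and that of the 42 lower genes was -0.75 and -0.58. Without 1E and 16D, DESeq2 called 17 genes (0.159%), 3 higher (0.028%) and 14 lower (0.131%), 8 of which were among the 358. Of the 24 uncalled genes above, DESeq2 then called 4, 2 higher and 2 lower. With edgeR and without both brains, 404 genes (3.7%) were higher and 226 (2.07%) lower at an unadjusted p under 0.05. All 24 genes of the set above had an unadjusted p under 0.05 in that fit, with adjusted p-values from 0.220 to 0.812. Of these, 12 of 12 were still higher (log2 0.75 to 1.97) and 12 of 12 still lower (-3.16 to -0.42). The 24 genes were picked by small p in a fit that held these same brains, so this is no separate test of them.

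Leaving out brains one at a time moved the DESeq2 count in both directions. From 358 of 10704 genes it fell to 44 without 16D, 65 without 1E, 153 without 15D and 227 without 19D, out of the same 10704. It also fell without single monogyne brains, to 75 without 239A, 137 without 232A, 144 without 233A, 149 without 235A, 158 without 209A and 209 without 222A. It rose to 968 without the monogyne brain 207A, and to 863, 841, 716 and 616 without the polygyne brains 104D, 107E, 30E and 20D. The count by edgeR stayed between 1 and 8 genes, of 10752 to 10828 tested. It was 8 without 104D, 6 without 16D, 5 without 222A, 3 without 235A, and 2 each without 240A, 20D and 30E.

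**Figure D4:**
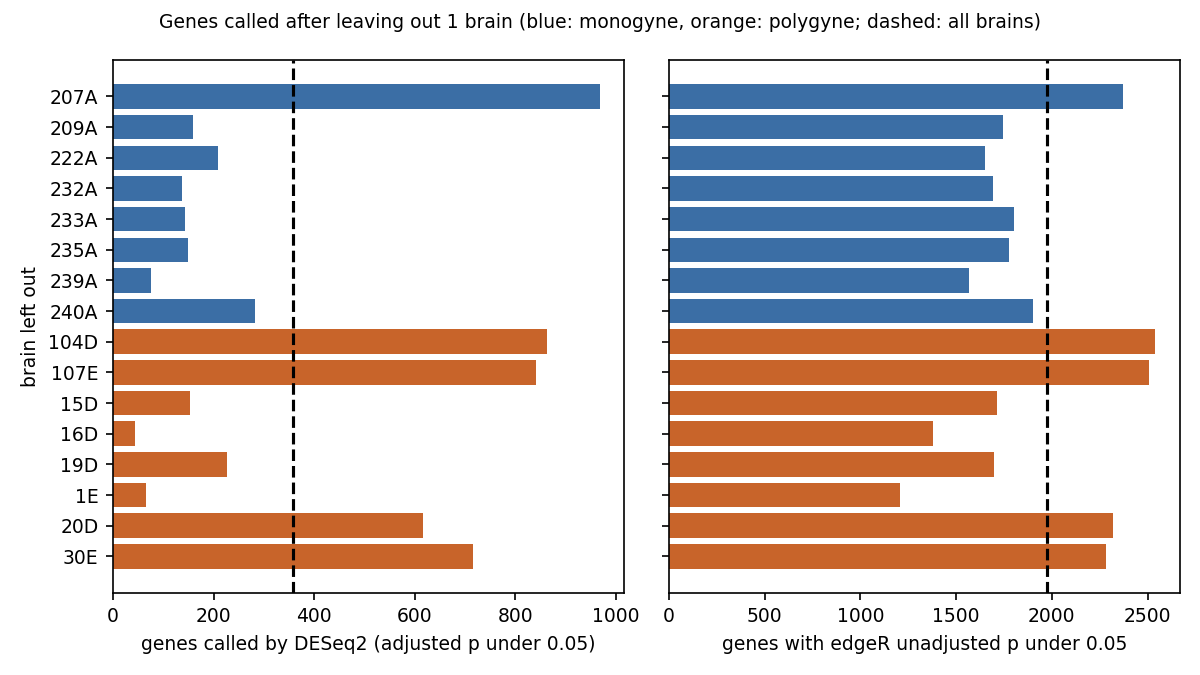
Number of genes called by DESeq2 (left panel) and number with an unadjusted edgeR p under 0.05 (right panel) after leaving out the brain named on the vertical axis; blue bars are monogyne, orange bars polygyne SB/SB brains, and dashed lines mark all brains (358 and 1974 genes). The DESeq2 count runs from 44 without 16D to 968 without 207A, of 10704 genes.

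Without 1E and 16D, edgeR called 4 of 10922 genes (0.0366%), of which LOC105196801 was the higher one (0.00916% of genes; log2 1.01, adjusted p = 0.0253). The lower ones (0.0275%) were LOC105205454 on chromosome 1 (log2 -5.63 ± 0.95, adjusted p = 0.0176), LOC105193680 on chromosome 16 (log2 -4.80 ± 0.88, adjusted p = 0.0253) and LOC105206461 on chromosome 3, at 0 in all 6 remaining polygyne brains (adjusted p = 0.0289). With all 16 brains their adjusted p-values were 0.289, 0.226 and 0.573. In each of them 16D was at a level of the higher monogyne brains: LOC105193680 stood at 120 CPM in 16D, at 0.433 to 4.38 CPM in the other 7 polygyne brains and at 70.3 to 197 CPM in 5 monogyne brains. The other 3 monogyne brains, 222A, 235A and 240A, held it at 2.31, 3.10 and 0.109 CPM.

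That split within the monogyne group recurred in other genes. Genes were searched, after their values were seen, for at least 1 CPM in 5 or more brains of one form and under 0.1 CPM in 6 or more of the other. Of the 15512 gene identifiers in the counts, 13 met this with the higher level in monogyne brains. Another 4 met it with the higher level in polygyne SB/SB brains. Of the 13, 8 reached 1 CPM in exactly the monogyne brains 207A, 209A, 232A, 233A and 239A, and 6 of these 8 also did so in 16D and in no other polygyne SB/SB brain. The 6 genes were LOC105204527 on chromosome 5, LOC105198266 on chromosome 14, LOC105206458 and LOC105206461 on chromosome 3, and the unplaced LOC105203379 and LOC105206662. Among the 13, LOC105205028 reached 1 CPM in all 8 monogyne brains and in polygyne 15D and 30E. LOC105199030 reached it in 7 monogyne and 0 polygyne SB/SB brains. Brain 16D was below 1 CPM in both of these genes. Since these genes were picked by their values in these animals, the pattern is a description and was given no test. How often genes picked by this rule would share the same animals without any link between them was not measured. Whether 16D belongs to the social form on its label was not tested. At LOC105196801 brain 16D, with 125 CPM, lay above every monogyne brain. That gene was called with 16D counted as polygyne, so this value is no check of the label. Without 16D the gene had a log2 change of 1.02 (adjusted p = 0.0109 by edgeR).

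LOC105204527, a protein-coding gene, stood at 117, 130, 169, 237 and 156 CPM in monogyne 207A, 209A, 232A, 233A and 239A, and at 98.8 CPM in polygyne 16D. It had 0 counts in the other 10 SB/SB brains, and 0 counts in all 8 SB/Sb and all 8 Sb/Sb brains. The ovaries repeated this animal by animal, with 21.8 to 66.9 CPM in the same 5 monogyne animals, 34.9 CPM in 16D, 0 in 222A, 235A and 240A, and at most 1.69 CPM in the other polygyne SB/SB animals but 104D, whose ovary library is too shallow to show the gene at this level (3 counts are 253 CPM there). Ovaries of SB/Sb and Sb/Sb animals held LOC105204527 at no more than 1.32 and 0.973 CPM. The gene did not enter the test, because the expression filter asks for counts in more brains, and a fit with no such filter gave it an adjusted p of 0.361. LOC105198266 followed the same animals in the brain at 115 to 282 CPM, with 36.0 CPM in 16D and at most 0.0866 CPM in the other 10 (adjusted p = 0.186 by edgeR). LOC105207085, the gene next to LOC105204527 on chromosome 5, reached 2.98 to 11.1 CPM in the same 5 monogyne brains and 0.497 CPM in 16D. Some of the genes that also reached 1 CPM in 16D were low in the ovary. Monogyne ovaries averaged 0.343 CPM for LOC105203379, 0.406 CPM for LOC105206458 and 0.766 CPM for LOC105206662.

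LOC105206461 departed from LOC105204527 in the animals that carry Sb. It was at 3.01 to 13.4 CPM in the 5 monogyne brains, 12.4 CPM in 16D and 0 in the other 10 SB/SB brains. All 8 Sb/Sb brains held it, at 2.59 to 16.0 CPM, and 7 of 8 SB/Sb brains held it at 1 CPM or more. The lowest SB/Sb brain had 0.234 CPM.

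**Figure D5:**
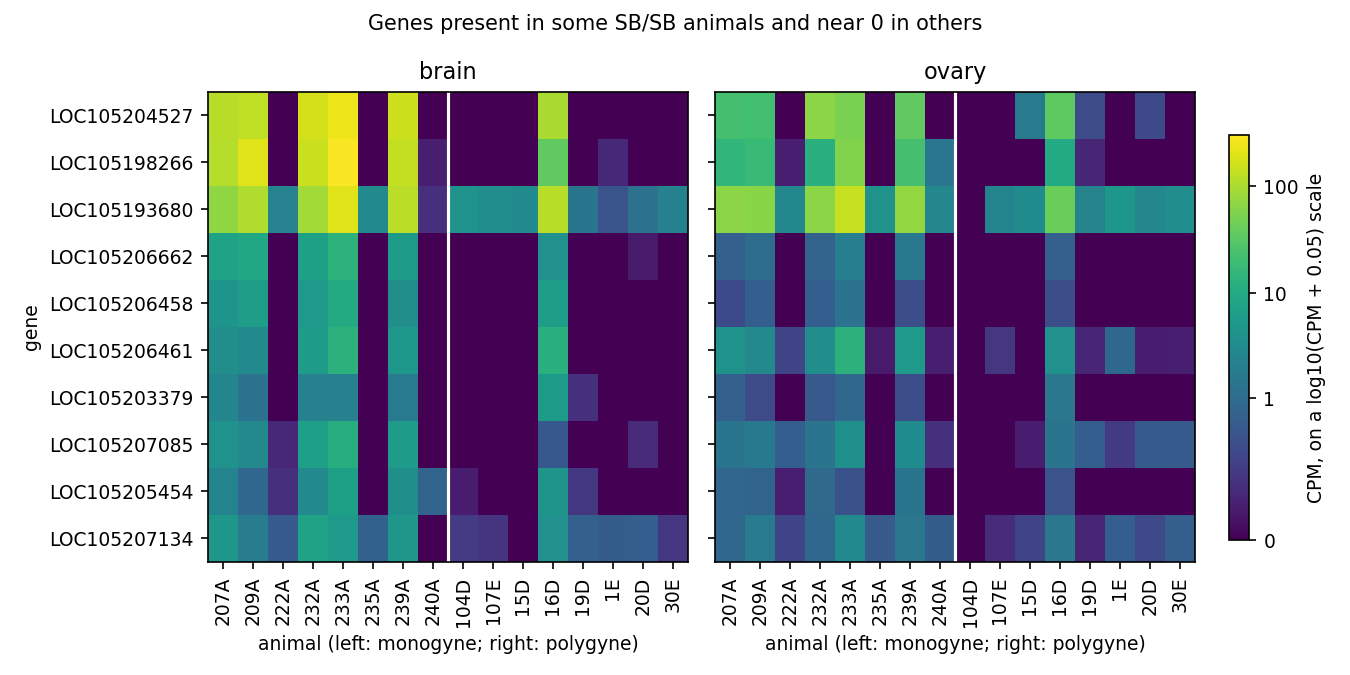
CPM of 10 genes (rows) in the brain (left panel) and ovary (right panel) of the 16 SB/SB animals (columns), on a log10(CPM + 0.05) colour scale, with monogyne animals left of the white line and polygyne animals right of it. The columns of 207A, 209A, 232A, 233A, 239A and 16D are bright in both tissues for the top gene, LOC105204527. For LOC105206662, LOC105206458 and LOC105203379 the monogyne mean was lower in the ovary than in the brain. The ovary of 104D is a shallow library.

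Genes known by a name were few, and none passed the test. LOC105203994, for an odorant-binding protein, a class of small carriers of scent molecules, ran from 746 to 1481 CPM in monogyne and from 724 to 1851 CPM in polygyne SB/SB brains (log2 0.33 ± 0.23, adjusted p = 0.439). The insulin receptors, which couple nutrition to growth and reproduction in insects, were not called. LOC105195102 (InR-2) averaged 2.66 ± 3.0 CPM in monogyne and 7.63 ± 7.78 CPM in polygyne SB/SB brains (log2 1.51 ± 0.70, adjusted p = 0.249). Its highest polygyne brains were again 1E and 16D, and the change was 0.50 without them. InR-1, LOC105207962, stood at 2.61 ± 3.38 and 6.53 ± 10.9 CPM (log2 1.32 ± 1.13, adjusted p = 0.528). LOC105200757 encodes the receptor by which eggs take up the yolk protein vitellogenin and stood at 6.89 ± 4.92 and 3.87 ± 2.66 CPM (log2 -0.83 ± 0.83, adjusted p = 0.597). This gene had 0 counts in 1E and 16D, and its log2 change was -0.41 without them. LOC105195645 (CYP6A14), a cytochrome P450 gene, stood at 1.29 ± 1.61 and 4.34 ± 7.72 CPM (log2 1.74 ± 1.42, adjusted p = 0.506). Its polygyne mean rested on 15D at 22.9 CPM, and the log2 change was 0.39 without that brain. LOC105197561 (GSTS1), a glutathione S-transferase gene of detoxification, was at 1266 ± 306 and 1254 ± 257 CPM (log2 -0.01 ± 0.21, adjusted p = 0.979).

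On chromosome 16, where the supergene lies, edgeR called 0 of 786 tested genes. At an unadjusted p under 0.05, 122 of the 786 genes were higher and 53 lower, or 22.3% against 18.4% of all genes, and DESeq2 called 3.82% of them against 3.34%. The other chromosomes ran from 16.3% (chromosome 10) to 20.7% (chromosome 7) at the unadjusted threshold. Without 1E and 16D the share was 7.0% on chromosome 16 and 5.69% over all 10704 genes, and chromosomes 3 (7.01%) and 7 (7.62%) were at or above it. The median log2 change was 0.04 on chromosome 16 and 0.05 over all genes.

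The effect of social form was set against that in the ovary in 1 fit of both tissues, with the animal as a block. No gene passed the test of brain minus ovary (0 of 11708, 0%; 527 or 4.5% at an unadjusted p under 0.05 by edgeR), and 0 of 11793 passed without animal 104D (0%; 679 or 5.76% at an unadjusted p under 0.05). Among the named genes the differences of largest size were those of LOC105203715 (-3.08 ± 0.79, SE, log2), LOC105195645 (3.03 ± 1.78), LOC105202152 (-2.38 ± 1.22) and LOC105196602 (1.91 ± 0.42). Their adjusted p-values by edgeR were 1.0 for the first 3 and 0.775 for LOC105196602.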

How the data were processed

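Per the labels' protocols, RNA of single brains was extracted with a column kit and DNase and made into libraries by Smart-seq2, which amplifies cDNA by PCR and marks neither molecules nor strand. Per the submitters' processing notes, the authors used Trimmomatic 0.32, STAR 2.5.3a and featureCounts. Neither the version of featureCounts nor the genome build is given in the sources used here. Raw counts per gene were deposited, without normalization by the authors. Of 15512 gene identifiers, 11895 were in the gene table of assembly UNIL_Sinv_3.0 and 11799 were on a chromosome, and 198 transfer RNA entries with 0.000177% of counts were left out.

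All 32 brains were fitted with edgeR 4.0.16 in R 4.3.3: TMM factors, filterByExpr at a minimum count of 10, 1 coefficient per group, quasi-likelihood F-tests and Benjamini-Hochberg adjustment over all genes, called at an adjusted p under 0.05. The SE is the log2 change divided by the root of F. CPM are scaled by TMM. The script was tested on simulated data. DESeq2 1.42.0, limma 3.58.1 (voom), sva 3.50.0, other filters and scalings, and each brain left out were alternatives. P-values treat the animals as separate, and 0 columns of other samples were present. Named genes were those called, the 12 higher and 12 lower uncalled ones with the smallest p and a mean of at least 5 CPM, those called by DESeq2 without overlap, and those known by a synonym. Members and lists were chosen with earlier results of these data known. The 26 lists by product name matched 0 genes, since the table names no products. Intervals and limits for a count of 0 cover counting error only.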

Additional observations from a re-analysis of the deposited data

Results flagged for a closer look

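Of 74 groups of 8 values, 15 held a brain far from the other 7, by the gap to its nearest neighbour over the range of the group; chance gives about 1 in 20 for normally distributed values, and the rate for skewed CPM of genes picked by small p was not measured. Monogyne 207A was the one set apart at LOC105195102 (9.72 CPM), LOC105198633 (10.4 CPM), LOC105202152 (58.0 CPM) and LOC105202312 (30.3 CPM), and 222A at LOC105198853 (105 CPM). Among polygyne SB/SB brains it was 1E at LOC105195208 (367 CPM) and LOC105207272 (30.1 CPM), and 16D at LOC105196602 (39.3 CPM) and LOC105198853 (274 CPM). It was 15D at LOC105195645 (22.9 CPM), 104D at LOC105203715 (3.35 CPM) and 20D at LOC105206826 (7.13 CPM). The 10 most abundant genes took 13.0% of counts in monogyne 239A and 17.1% in polygyne 15D, and chromosome 16 took 6.94% of counts in 1E, each apart from the rest of its group.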

How the results depend on the processing

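The single edgeR call also came out as 1 gene with RLE size factors, with no filter, with a mean count of at least 50, with the library total as a covariate and with robust dispersion. Other settings gave other counts. Of 10704 genes, DESeq2 called 358 on 32 brains, 300 on the 16 SB/SB brains and 360 without replacement of outlier counts. Of the same 10704, voom called 3 with quality weights and 2 with 2 surrogate variables, and edgeR called 7 at an adjusted p under 0.1. On the 16 SB/SB brains edgeR called 0 of 9928 genes (1738 at an unadjusted p under 0.05). Without 1E and 16D edgeR called 4 of 10922 and DESeq2 17 of 10704. Without 16C and 30A as well edgeR called 4 of 10864. Leaving out each brain gave 1 to 8 genes by edgeR (of 10752 to 10828) and 44 to 968 by DESeq2 (of 10704). The cause of these shifts was not tested. No paired analysis was possible because the social forms share 0 title numbers; voom with the title number as a random replicate block, which links polygyne brains only (correlation 0.191), called 4. LOC105196801 was called under 46 of 47 alternatives (log2 0.71 to 1.21, adjusted p 3.09e-07 to 0.153), the exception being edgeR on 16 brains. Of the 47, 32 were fits by edgeR or DESeq2 with 1 brain left out, and the alternatives reuse the same libraries, so they are not separate tests. Of the other values of named genes, 26 changed sign, all in 3 genes without a call. LOC105207962 went to -0.17 with quality weights, -0.44 with the block and -0.28 with surrogate variables, and ran from -1.25 to 2.03 with 1 brain left out, negative by DESeq2 without 19D. LOC105200757 went to 0.28 with quality weights and 0.12 with surrogate variables. LOC105197561 went to 2.97e-05 with the mean filter, 0.070 with quality weights, 0.024 without 1E and 16D, 0.025 also without 16C and 30A, 0.0301 by DESeq2 without 1E and 16D, 0.11 with the library total and 0.0302 with surrogate variables, and ran from -0.082 to 0.082 with 1 brain left out. Without 1E and 16D the difference in genes detected went from -144 to 46.6, and that in the TMM factor from 0.02 to -0.0074. Depth limits genes near 0, and the shallowest brain, 1E, is among those that stand apart.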
